A study of Mus musculus with 36 samples.

Results

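LncCPR-knockout embryoid bodies at day 12 of differentiation were set against control embryoid bodies at day 8, in 6 of the 36 libraries of the series, 3 libraries per group. The question this pairing addresses is which tissues of the knockout reach, with 4 more days, the level that the control had at day 8, and which do not. The day 12 knockout group is AB2.2 cells, a mouse embryonic stem cell line, from which the long noncoding RNA LncCPR was removed with Cas9 and a pair of guides on either side of the gene. The day 8 control group is AB2.2 cells that carry no such deletion. Per the labels, both groups were grown without the cytokine LIF as embryoid bodies, cell aggregates started in hanging drops that give rise to all germ layers, and whole aggregates were collected, so each library mixes many cell types. Knockout cells were expanded from single sorted cells, and how many lines the 3 libraries stand for is not given in the sources used here. The labels do not say that libraries of a group came from separate cultures, so p-values measure the spread between these libraries, which may be technical.

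The libraries were chosen by their labels and not by any measured value. Values are FPKM, mapped fragments scaled to transcript length and library size, and 12805 of 37561 gene entries averaged at least 1 FPKM across the 6 libraries and were tested. Differences are log2(FPKM + 1), knockout minus control, which understates the change of low genes. The 2 groups come from 2 deposited tables, 1 per day, and it is not stated that these were normalized together. Genotype and the 4 days of age cannot be told apart in this pairing. The main gene lists are therefore also described in 2 comparisons made within a table, knockout against control at day 8 and knockout against control at day 12. These share libraries with the main pairing, so their values stand side by side and are not counted as independent support. The change of the knockout effect, the difference at day 12 minus the difference at day 8, was tested as well, and each of its parts lies within 1 table.

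Heart muscle forms from mesoderm that leaves the primitive streak, is specified by transcription factors such as Gata4, Tbx5, Hand2, Mef2c and Nkx2-5, and then builds sarcomeres, the contractile units of actin and myosin filaments. Calcium released from the sarcoplasmic reticulum starts each contraction and is pumped back by the ATPase Atp2a2, which phospholamban restrains. In embryoid bodies heart muscle arises next to endothelium, primitive red blood cells, connective tissue and a coat of visceral endoderm, which secretes many proteins that the liver makes later.

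The 6 libraries summed to between 299260 and 379442 FPKM, and log2 values of any 2 replicates gave r of 0.9895 to 0.9923 over genes, which are not independent of each other. FPKM holds no read counts, so absolute depth is unknown. Relative depth, read from the smallest values of rare genes, lay between 0.859 and 1.00 times that of control day 8 replicate 1. These are rough figures, each the commonest ratio among few genes. It was shared by 6 of 38 genes in knockout day 12 replicate 1 and 21 of 96 in control day 8 replicate 2. Control day 8 replicate 2 stood apart by 24422 genes above 0 and Gm10800 at 11306 FPKM. The ribosomal RNA mt-Rnr2 was at 53138 FPKM in knockout day 12 replicate 3 and listed at 0 in the other 5. The top 10 genes held 28.6% of the sum in control day 8 replicate 3, where n424047 was at 37354 FPKM. They held 27.2% in knockout day 12 replicate 3 and 13.3% to 15.6% in the remaining libraries. The median over all genes tested was 0.18 (log2), and it fell to 0.00 after each library was divided by its median ratio to the others. Within tables the median of knockout minus control was 0.09 at day 8 and 0.05 at day 12. The cause of the shift was not tested. Counts of list members in this pairing are therefore given also after this median-ratio rescaling. Genes on chromosome 1 had a median of -0.07 against 0.20 for all other genes, so members on chromosome 1 are named as such. No gene entry bears the name LncCPR. The noncoding RNA 4930500J02Rik was listed at 0 in the 3 knockout day 12 libraries and at 10.5, 8.93 and 8.60 FPKM in the control day 8 libraries, and whether it is the deleted gene is not stated in the labels.

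Between knockout day 12 and control day 8, 2684 of 12805 genes (21.0%) passed an adjusted p of 0.05, 2261 higher (17.7%) and 423 lower (3.30%). After rescaling 2146 genes passed (16.8%), 1091 higher (8.52%) and 1055 lower (8.24%). Before rescaling, the libraries of the 2 groups did not overlap for 5159 genes (40.3%). Knockout day 12 lay above control day 8 in 4244 of these (33.1% of all genes tested) and below it in 915 (7.15%). By their medians, the lists of the sarcomere (-1.24), the primitive streak (-0.94), the endothelium (-0.78) and cardiac mesoderm (-0.71) lay lowest. Those of visceral endoderm (0.91), p53 targets (0.83), connective tissue (0.80) and smooth muscle (0.65) lay highest among lists with 5 or more genes tested. The total of 2684 genes that passed moved to 1324, 1288, 1381 and 1777 genes without knockout day 12 replicate 1 or 2 or control day 8 replicate 2 or 3.

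**Figure D1:**
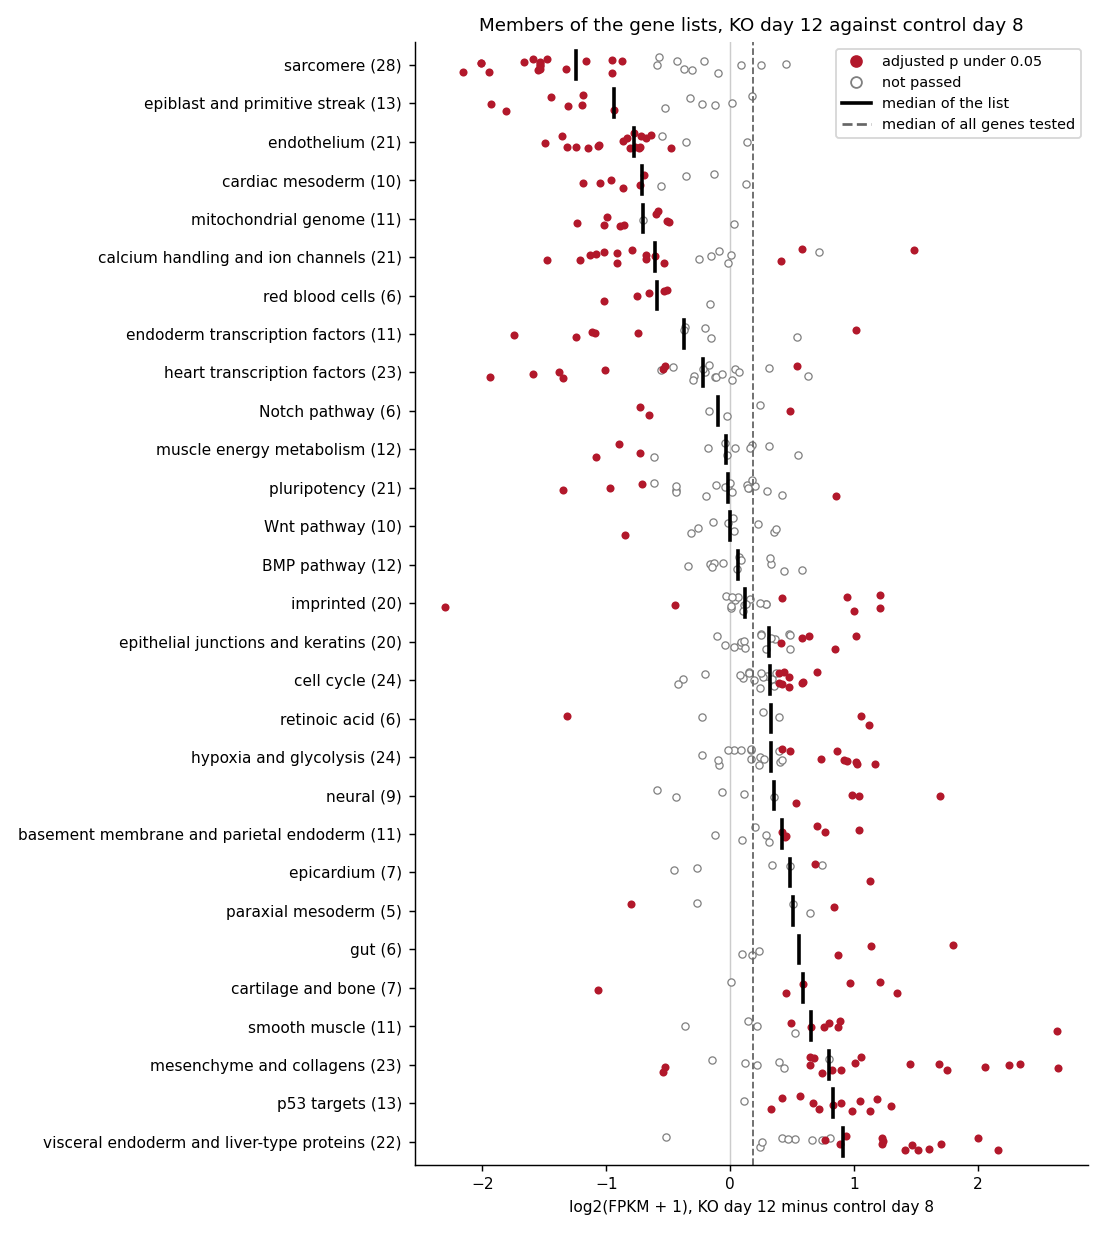
Each point is a gene of a list, placed by its difference in log2(FPKM + 1) between knockout day 12 and control day 8 (x axis), for lists with 5 or more genes tested (number in brackets, y axis); filled points passed an adjusted p of 0.05, black bars are list medians and the dashed line is the median of all genes, 0.18. The sarcomere list has the lowest median, -1.24, and visceral endoderm and liver-type proteins the highest, 0.91.

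The sarcomere stayed below the control day 8 level. Of 33 genes listed, 28 were tested and 18 were lower in knockout day 12, against 3.30% of all genes. The median was -1.24, and 23 were lower after rescaling, against 8.24% of all genes. Myh6, the alpha heavy chain of cardiac myosin, had 48.3, 42.0 and 32.8 FPKM in knockout day 12 and 89.6, 145 and 131 FPKM in control day 8. Knockout libraries all lay below all control libraries, and the difference was -1.53 (SE 0.19, adjusted p = 0.000967). Myh7, the beta heavy chain, had 35.1, 25.2 and 27.4 FPKM in knockout day 12 and 127, 139 and 131 FPKM in control day 8, a difference of -2.16 (SE 0.13, adjusted p = 3.47e-05). Tnnt2, cardiac troponin T, lies on chromosome 1 and had 44.4, 37.9 and 40.0 FPKM in knockout day 12 and 137, 186 and 182 FPKM in control day 8, a difference of -2.01 (SE 0.14, adjusted p = 7.29e-05). The groups did not overlap for either gene, and knockout day 12 stood at 22.1% of the control day 8 mean for Myh7 and 24.2% for Tnnt2. In bulk samples, fewer heart muscle cells and less RNA per cell cannot be told apart.

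The light chains and cardiac actin were lower too. Myl7, the atrial light chain, had 46.1, 41.3 and 56.5 FPKM in knockout day 12 and 189, 223 and 176 FPKM in control day 8 (difference -2.01, SE 0.14, adjusted p = 7.43e-05). Myl2, the ventricular light chain, had 9.51, 9.91 and 7.45 FPKM in knockout day 12 and 25.4, 31.5 and 23.3 FPKM in control day 8 (difference -1.48, SE 0.15, adjusted p = 0.000374). Actc1, cardiac actin, had 108, 89.1 and 88.6 FPKM in knockout day 12 and 289, 337 and 285 FPKM in control day 8 (difference -1.67, SE 0.12, adjusted p = 0.000102). All 3 were lower in each knockout library than in any control library. Myl3, Myl4, Mybpc3, Nebl, Myom1, Unc45b and, on chromosome 1, Tnni1 also fell, by 1.53 to 1.95 on the log2 scale. Tpm1, a tropomyosin of many cell types and the most abundant of the list, averaged 975 FPKM in knockout day 12 and 923 FPKM in control day 8 and did not pass (adjusted p = 0.716). Tnni3, the cardiac troponin I of later stages, averaged 6.81 FPKM in knockout day 12 and 10.6 FPKM in control day 8 (adjusted p = 0.0936, or 0.0373 after rescaling). Titin was listed at 13.6, 12.4 and 0 FPKM in knockout day 12 and at 75.6, 0 and 0 FPKM in control day 8; a 0 beside such values can be a failed estimate, and no difference is drawn from it.

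The promoters of Actc1 and Myl7, which stayed low, and those of Pln and Col3a1, which passed the control day 8 level, are shown as the 250 bases before the RefSeq start (GRCm38.p6, not the build of the files). They lie at chr2:114052876-114053125 on the minus strand for Actc1, chr11:5898783-5899032 on the minus strand for Myl7, chr10:53337436-53337685 on the plus strand for Pln and chr1:45311288-45311537 on the plus strand for Col3a1. Capitals mark a CArG box, bound by serum response factor, in Actc1 and Myl7, TATAAA and AGATAA (reverse strand) in Pln, and TATAAA in Col3a1.
Actc1: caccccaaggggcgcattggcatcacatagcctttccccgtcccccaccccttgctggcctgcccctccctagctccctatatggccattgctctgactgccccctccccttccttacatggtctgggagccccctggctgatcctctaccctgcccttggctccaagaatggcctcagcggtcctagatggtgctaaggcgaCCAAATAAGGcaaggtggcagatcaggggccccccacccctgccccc
Myl7: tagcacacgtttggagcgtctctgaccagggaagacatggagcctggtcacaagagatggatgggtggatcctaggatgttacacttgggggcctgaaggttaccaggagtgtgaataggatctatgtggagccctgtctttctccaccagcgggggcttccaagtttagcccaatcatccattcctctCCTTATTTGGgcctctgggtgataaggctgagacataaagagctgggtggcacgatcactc
Pln: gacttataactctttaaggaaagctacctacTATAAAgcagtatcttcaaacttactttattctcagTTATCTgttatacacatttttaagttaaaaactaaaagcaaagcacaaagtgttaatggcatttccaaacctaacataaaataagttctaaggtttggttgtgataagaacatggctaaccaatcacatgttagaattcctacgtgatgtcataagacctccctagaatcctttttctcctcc
Col3a1: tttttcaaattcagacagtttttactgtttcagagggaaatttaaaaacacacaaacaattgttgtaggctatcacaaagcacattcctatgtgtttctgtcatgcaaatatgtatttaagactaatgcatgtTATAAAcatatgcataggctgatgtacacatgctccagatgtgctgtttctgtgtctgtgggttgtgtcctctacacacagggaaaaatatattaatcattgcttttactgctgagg
The CArG box and the MEF2 site (by name), TATAAA and AGATAA were searched on both strands. A MEF2 site and a CArG box can each hold TATAAA. The CArG box was found in 20.5% of 39 promoters of 28 sarcomere genes and in 1.47% of 32841 promoters of 27018 genes. The MEF2 site was in 12.8% of sarcomere promoters and 2.92% of all, AGATAA in 17.9% and 9.99%, and TATAAA in 5.13% and 12.4%. Of 16 promoters of 14 connective tissue genes 31.2% held TATAAA, and 0 held the CArG box, the MEF2 site or AGATAA. A match describes these letters and is not a measured binding site.

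Within tables, 22 of 28 sarcomere genes were lower in the knockout at day 8 (2.00% of all genes), with a median of -2.01, and 18 of 28 at day 12 (3.48%), with a median of -0.92. The knockout effect moved up between the days for 12 of 29 sarcomere genes (0.898% of all genes). Tnnt2 averaged 40.8 ± 3.35 FPKM in knockout day 12, 23.9 ± 1.73 FPKM in knockout day 8, 168 ± 27.3 FPKM in control day 8 and 106 ± 15.7 FPKM in control day 12 (SD, n = 3 each). Its knockout effect was -1.35 at day 12 and -2.75 at day 8, a change of 1.40 (SE 0.18, adjusted p = 0.00337). Knockout day 12 was thus nearer to control day 12, at 38.5% of it, than to control day 8, and the control itself stood lower at day 12 than at day 8. Myh6 averaged 41.0 ± 7.78 FPKM in knockout day 12, 11.7 ± 2.14 FPKM in knockout day 8, 122 ± 28.6 FPKM in control day 8 and 155 ± 15.8 FPKM in control day 12 (SD, n = 3 each), and its knockout effect changed by 1.35 (adjusted p = 0.0218), a call lost without any of 5 libraries. Myh7 moved otherwise: knockout day 12 was at 22.1% of control day 8 and knockout day 8 at 24.5%, with a difference of -0.16 between the knockout days (adjusted p = 0.516). For Myl2 knockout day 12 was at 33.5% of control day 8 but at 9.89% of control day 12.

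**Figure D2:**
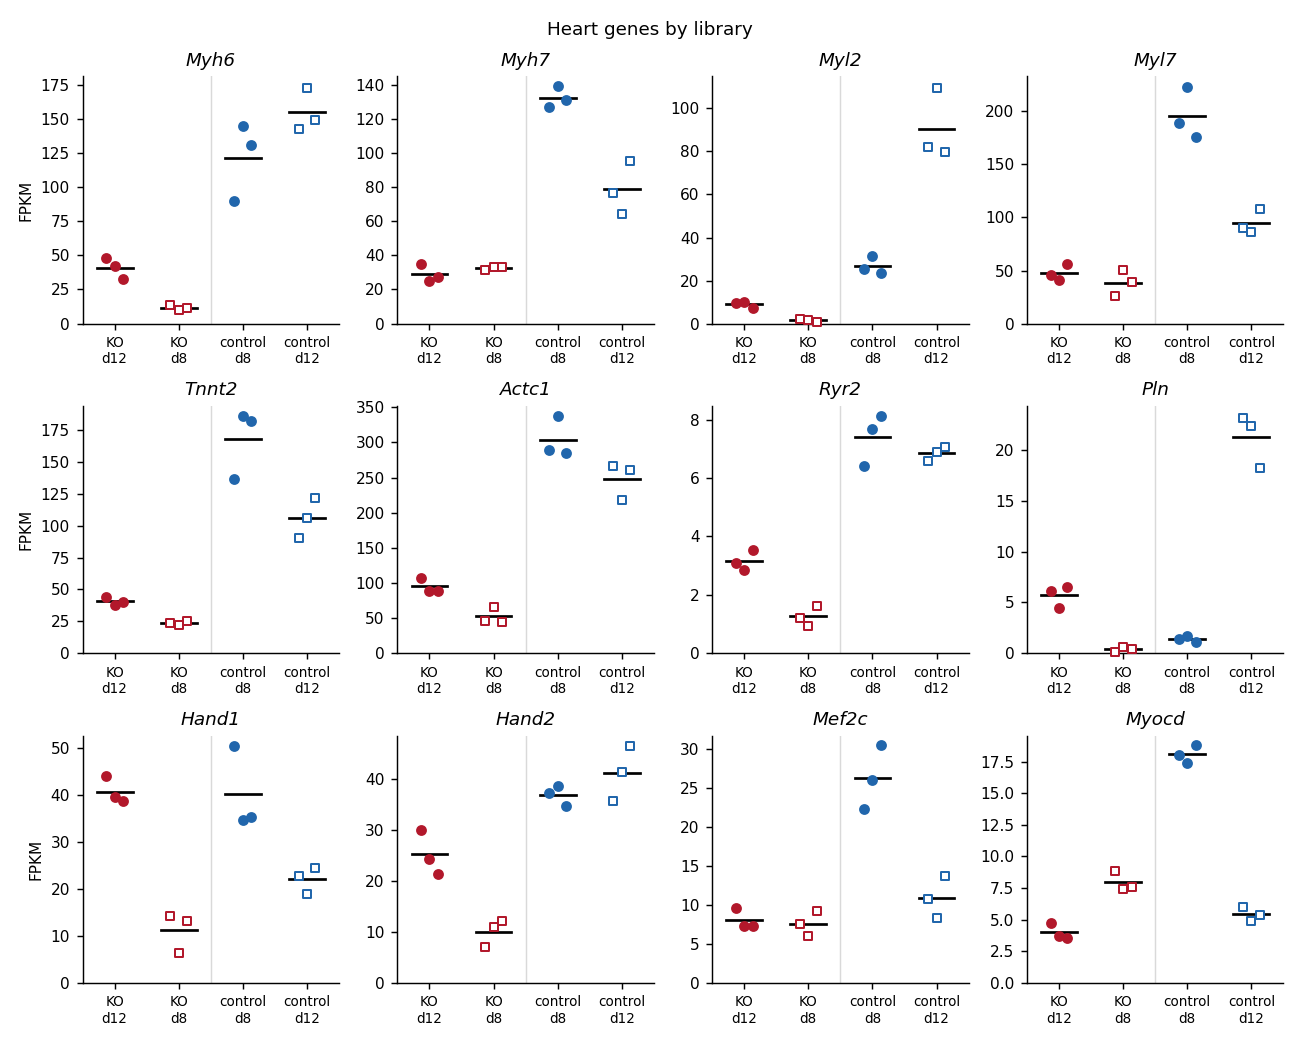
FPKM (y axis, linear, from 0) of 12 heart genes in the 3 libraries of knockout day 12, knockout day 8, control day 8 and control day 12; bars are means, and filled circles mark the main pairing. For the 6 sarcomere genes, from Myh6 to Actc1, the knockout day 12 libraries of each gene lie below its control day 8 libraries, whereas Pln lies above them and Hand1 overlaps them.

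Calcium handling genes were lower than in control day 8 for the larger part, with Pln above it. Of 27 genes listed for calcium handling and ion channels, 21 were tested and 12 were lower (3.30% of all genes), 13 after rescaling (8.24%). A further 3 were higher, a smaller share than that of all genes (17.7%), and 1 after rescaling (8.52%). Without knockout day 12 replicate 2 the lower count was 7, and without any knockout day 12 library or control day 8 replicate 2 the higher count was 1. The gene higher after rescaling was Pln, phospholamban, with 6.10, 4.48 and 6.51 FPKM in knockout day 12 and 1.42, 1.64 and 1.08 FPKM in control day 8. Knockout libraries lay above all control libraries, as for 33.1% of all genes tested, with a difference of 1.49 (SE 0.18, adjusted p = 0.000841). Pln was still lower than in control day 12, where it averaged 21.3 ± 2.65 FPKM (SD, n = 3; within-table difference -1.74, adjusted p = 0.000585). Ryr2, the calcium release channel, had 3.10, 2.84 and 3.52 FPKM in knockout day 12 and 6.42, 7.67 and 8.11 FPKM in control day 8 (difference -1.02, SE 0.14, adjusted p = 0.00184). Slc8a1, the sodium-calcium exchanger, had 37.6, 28.4 and 27.4 FPKM in knockout day 12 and 67.7, 84.8 and 57.0 FPKM in control day 8 (difference -1.13, SE 0.16, adjusted p = 0.00205). Both were lower in all 3 knockout libraries than in any control library. Atp2a2, the calcium pump, had 57.3, 55.3 and 51.5 FPKM in knockout day 12 and 56.3, 57.8 and 51.8 FPKM in control day 8, groups that overlap, with a difference of -0.02 (95% interval -0.24 to 0.21). The L-type calcium channel genes Cacna1c and Cacna1d fell by 1.08 and 1.21 on the log2 scale, and Gja5, a gap junction gene, by 1.48. Within tables, 10 of 19 genes of the list were lower in the knockout at day 8 (2.00%) and 9 of 19 at day 12 (3.48%), with 1 higher at each day (1.28% and 3.22%).

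Of 23 transcription factors of the heart, all tested, 7 were lower than in control day 8 (3.30% of all genes) and 1 was higher, Nr2f2 (17.7%), with a median of -0.22. After rescaling 12 were lower (8.24% of all genes) and 0 higher (8.52%), with 2 higher at an unadjusted p under 0.05 before rescaling. The higher count was 0 to 2 when a library was left out, and Nr2f2 lost its call without knockout day 12 replicate 1 or 3 or control day 8 replicate 2. Within tables, 11 of 23 were lower in the knockout at day 8 (2.00%), and at day 12 5 were lower (3.48%) and 2 higher (3.22%). Hand1, a factor of the outflow tract, left ventricle and extraembryonic mesoderm, had 44.0, 39.6 and 38.7 FPKM in knockout day 12 and 50.5, 34.7 and 35.4 FPKM in control day 8. The groups overlapped, with a difference of 0.04 (95% interval -0.29 to 0.37, adjusted p = 0.878). Its knockout effect was 0.86 at day 12 and -1.80 at day 8, a change of 2.66 (adjusted p = 0.00171). Hand2, its paralog in the right ventricle, had 30.0, 24.2 and 21.4 FPKM in knockout day 12 and 37.3, 38.5 and 34.8 FPKM in control day 8 (difference -0.54, SE 0.13, adjusted p = 0.0186). It reached 68.3% of control day 8 in the knockout at day 12 and 27.1% at day 8, and its call was lost without knockout day 12 replicate 2 or control day 8 replicate 2 (adjusted p = 0.0665 and 0.0688). Gata4 had 20.7, 16.1 and 13.0 FPKM in knockout day 12 and 22.8, 18.1 and 19.9 FPKM in control day 8, groups that overlap (difference -0.29, adjusted p = 0.224, or 0.0422 after rescaling).

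Mef2c, an activator of muscle genes, had 9.62, 7.25 and 7.28 FPKM in knockout day 12 and 22.3, 26.0 and 30.6 FPKM in control day 8 (difference -1.59, SE 0.15, adjusted p = 0.000297). Myocd, the coactivator of serum response factor, had 4.76, 3.72 and 3.53 FPKM in knockout day 12 and 18.1, 17.4 and 18.8 FPKM in control day 8 (difference -1.94, SE 0.13, adjusted p = 7.29e-05). Neither gene's groups overlapped. Both were also low in control day 12, with means of 10.9 and 5.41 FPKM, and neither differed between knockout and control at that day (adjusted p = 0.243 and 0.183). Nkx2-5, an early factor of heart precursors, had 1.66, 1.18 and 1.39 FPKM in knockout day 12 and 6.48, 4.91 and 4.19 FPKM in control day 8 (difference -1.35, adjusted p = 0.00135). Both Nkx2-5 and Myocd stood at a lower share of control day 8 in knockout day 12, 27.2% and 22.1%, than in knockout day 8, 56.3% and 43.9% (adjusted p = 0.0348 and 0.0072 for knockout day 12 minus knockout day 8). Tbx5 averaged 1.28 FPKM in knockout day 12 and 2.37 FPKM in control day 8 (adjusted p = 0.0518, or 0.0281 after rescaling). Gata5, Smyd1 and Tbx20 also fell, by 1.01, 1.38 and 0.53 on the log2 scale, and Tbx20 lost its call without any 1 knockout day 12 library or control day 8 replicate 2 (adjusted p = 0.0531 to 0.06). Isl1, of second heart field precursors, averaged 6.76 FPKM in knockout day 12 and 8.54 FPKM in control day 8 (adjusted p = 0.184, or 0.0278 after rescaling).

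**Figure D3:**
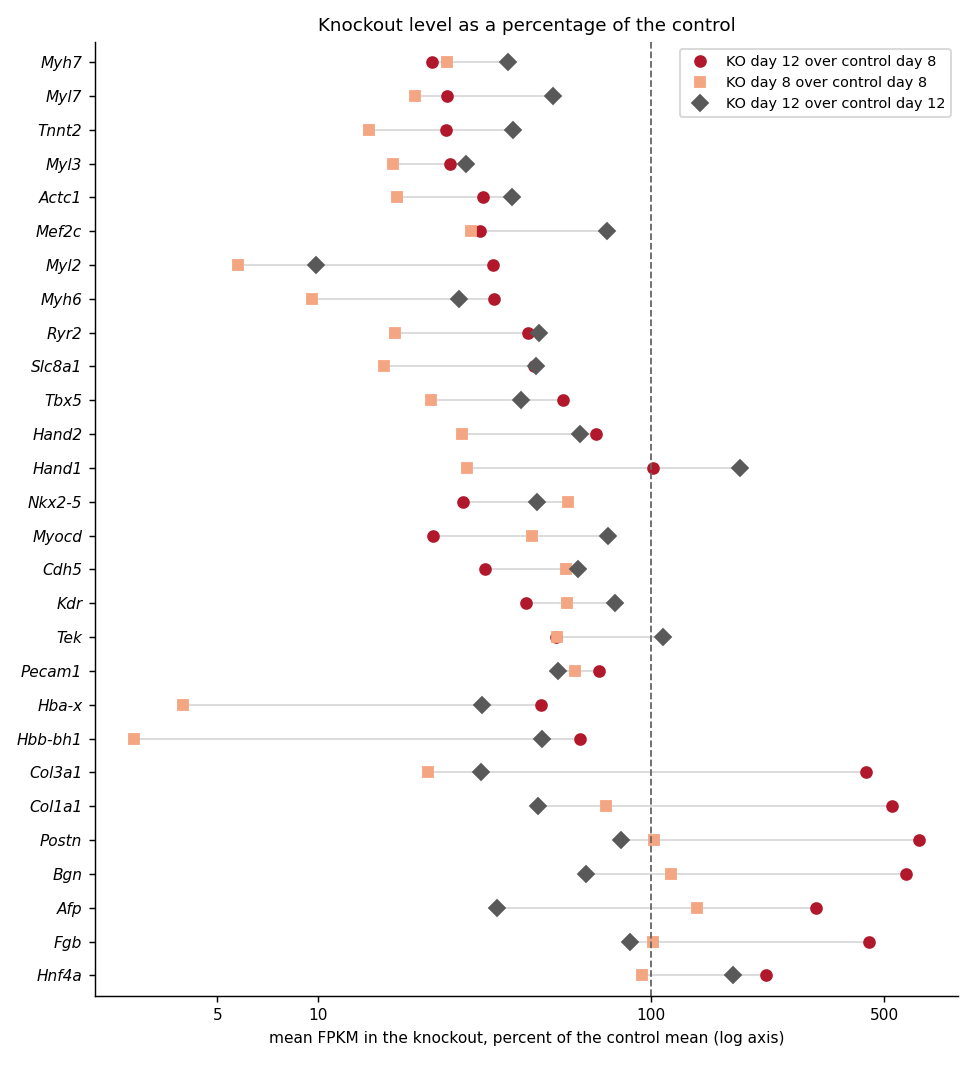
Mean FPKM in the knockout as a percentage of the control mean (x axis, log scale) for 28 genes, for knockout day 12 over control day 8 (circles), knockout day 8 over control day 8 (squares) and knockout day 12 over control day 12 (diamonds); the dashed line marks 100%. Circles run from 22.1% for Myh7 to 636% for Postn, and the squares of the globins Hba-x and Hbb-bh1 lie at 3.95% and 2.81%.

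The endothelium was below control day 8. Of 26 genes listed, 21 were tested and 18 were lower (3.30% of all genes), with a median of -0.78. After rescaling 19 were lower (8.24% of all genes), and 13 to 17 when a library was left out. Cdh5, the cadherin of endothelial junctions, had 5.95, 5.64 and 5.58 FPKM in knockout day 12 and 17.4, 19.2 and 17.4 FPKM in control day 8 (difference -1.50, SE 0.11, adjusted p = 0.000113). Kdr, the VEGF receptor that also marks early mesoderm, had 14.3, 11.4 and 11.0 FPKM in knockout day 12 and 28.6, 28.5 and 29.9 FPKM in control day 8 (difference -1.19, SE 0.12, adjusted p = 0.000407). The groups did not overlap for either. The receptors Tek and Tie1 fell by 0.84 and 1.31, Plvap by 1.25 and Icam2 by 1.36 on the log2 scale. Flt1, a VEGF receptor also made as a soluble form, averaged 25.6 FPKM in knockout day 12 and 23.1 FPKM in control day 8 and did not pass (adjusted p = 0.48). Pecam1, an adhesion molecule that blood cells and early embryonic cells also carry, averaged 9.03 FPKM in knockout day 12 and 13.0 FPKM in control day 8, and its call (adjusted p = 0.0174) was lost without knockout day 12 replicate 1 or 2 or control day 8 replicate 2.

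Cdh5 averaged 5.72 ± 0.198 FPKM in knockout day 12, 10.0 ± 0.675 FPKM in knockout day 8, 18.0 ± 1.07 FPKM in control day 8 and 9.51 ± 0.533 FPKM in control day 12 (SD, n = 3 each). It was lower in knockout day 12 than in knockout day 8 (difference -0.71, adjusted p = 0.00757). Within tables, 4 of 21 endothelial genes were lower in the knockout at day 8 (2.00%) and 4 of 21 at day 12 (3.48%). For the change of the knockout effect, limma called 0 of 21 endothelial genes, where 0.898% of all genes moved up and 0.905% down. At an unadjusted p under 0.05, 1 of the list moved up and 4 down. Against knockout day 8, 6 of 20 endothelial genes were lower in knockout day 12 (2.76%), and limma called 0 higher (10.2% of all genes), with 1 at an unadjusted p under 0.05. After rescaling, 9 of 21 were lower at day 8 (3.78%).

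Embryonic globins were near 0 in knockout day 8 and reached part of the control day 8 level by day 12. Of 25 red blood cell genes listed, 6 were tested and 5 were lower (3.30%), also after rescaling (8.24%), a count of 3 without knockout day 12 replicate 1 or control day 8 replicate 2 or 3 and 2 without knockout day 12 replicate 2. Hba-x, the embryonic alpha-like globin, had 8.36, 6.50 and 5.20 FPKM in knockout day 12 and 14.7, 12.8 and 15.6 FPKM in control day 8 (difference -1.02, SE 0.16, adjusted p = 0.00318). Hbb-bh1, the embryonic beta-like globin, had 8.38, 10.7 and 9.00 FPKM in knockout day 12 and 16.9, 14.4 and 14.4 FPKM in control day 8 (difference -0.65, SE 0.13, adjusted p = 0.00874). Knockout libraries were below all control libraries for both. Within tables, 3 of 6 genes of the list were lower in the knockout at day 8 (2.00%), where 1 was higher (1.28%), and 3 of 7 were lower at day 12 (3.48%). In knockout day 8 the 2 globins averaged 0.567 and 0.429 FPKM, 3.95% and 2.81% of control day 8. The knockout effect on them moved up between the days by 1.77 (adjusted p = 0.00766) and 2.62 (adjusted p = 0.00377). Hbb-y, another embryonic globin, and the erythroid factor Gata1 did not reach 1 FPKM in any of the 6 libraries and were not tested. Lmo2 and Runx1, factors of early blood, fell by 0.75 and 0.51 on the log2 scale; Runx1 averaged 2.66 FPKM in knockout day 12 against 5.74 FPKM in knockout day 8 (difference -0.88, adjusted p = 0.00563).

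Genes of the primitive streak and of early mesoderm lay below control day 8 as groups. Of 17 epiblast and streak genes 13 were tested and 7 were lower in knockout day 12 than in control day 8 (3.30%), with a median of -0.94, and 8 after rescaling (8.24%). Eomes, a T-box factor of the streak, had 1.91, 0.967 and 1.34 FPKM in knockout day 12 and 8.37, 7.43 and 8.44 FPKM in control day 8 (difference -1.93, SE 0.17, adjusted p = 0.000232). The growth factors Fgf5 and Fgf8 fell by 1.44 and 1.19 on the log2 scale, and Mixl1 and Lefty2, both on chromosome 1, by 1.81 and 1.18. In knockout day 8, 5 of 15 stood above control day 8 (1.28%) and 1 below (2.00%), and in knockout day 12 1 of 11 stood above control day 12 (3.22%) and 1 below (3.48%). T averaged 11.1 FPKM in knockout day 8 and 3.09 FPKM in control day 8 (adjusted p = 0.00394), and Fgf5 averaged 21.9 FPKM in knockout day 8 and 7.48 FPKM in control day 8 (adjusted p = 0.000421). T was at 2.24 FPKM in knockout day 12, not separated from control day 8 (adjusted p = 0.237), and the change of its knockout effect was -1.43 (adjusted p = 0.0346).

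Pluripotency genes were still measured. Pou5f1 had 22.3, 14.8 and 20.5 FPKM in knockout day 12 and 27.9, 24.7 and 25.3 FPKM in control day 8, with no overlap but an adjusted p of 0.0637 (0.0247 after rescaling). It had averaged 82.7 FPKM in knockout day 8, so its knockout effect moved by -1.83 (adjusted p = 0.0424). Nanog averaged 13.1 FPKM in knockout day 12 and 10.3 FPKM in control day 8 (adjusted p = 0.202). Of 21 pluripotency genes tested 3 were lower, Tdgf1, Dnmt3b and Sall4 (3.30% of all genes), and 5 after rescaling (8.24%), and 1 was higher, Klf5 (17.7%), whose adjusted p after rescaling was 0.0565. Within tables, 6 of 22 were higher in the knockout at day 8 (1.28%) and 3 of 22 at day 12 (3.22%). Of 10 cardiac mesoderm genes tested 6 were lower (3.30%), also after rescaling (8.24%), with a median of -0.71. Within tables, 4 of 12 were lower in the knockout at day 8 (2.00%) and 2 of 9 at day 12 (3.48%). Pdgfra, a receptor of mesoderm and mesenchyme, was among those that did not pass, with means of 16.6 FPKM in knockout day 12, 4.21 FPKM in knockout day 8 and 15.0 FPKM in control day 8 (adjusted p = 0.497 for knockout day 12 minus control day 8).

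**Figure D4:**
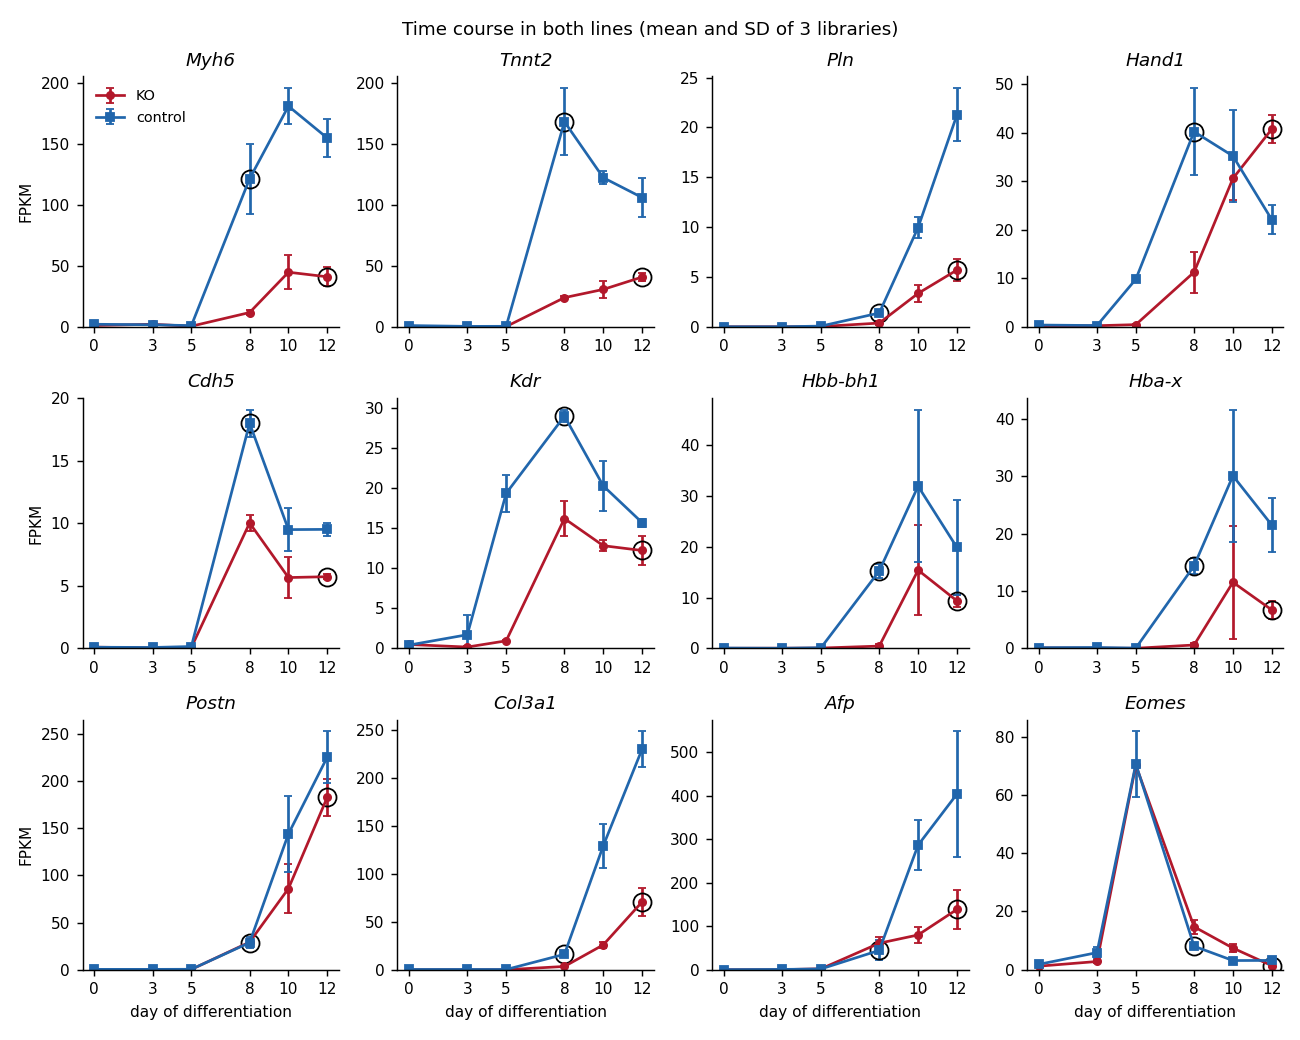
Mean FPKM and SD of 3 libraries (y axis, linear) by day of differentiation (x axis) in knockout and control for 12 genes; rings mark knockout day 12 and control day 8. The levels of different days come from different tables. Tnnt2 reaches 40.8 FPKM in knockout day 12 against 168 FPKM in control day 8, Hand1 40.7 against 40.2 FPKM, and Postn 183 against 28.7 FPKM.

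Most connective tissue genes tested were above control day 8, and most were below control day 12. Of 26 mesenchyme and collagen genes listed, 23 were tested, 15 were higher (17.7% of all genes) and 2 lower (3.30%), with a median of 0.80; after rescaling 13 were higher (8.52%) and 2 lower (8.24%). Postn, periostin of valve and fibroblast matrix, had 185, 201 and 162 FPKM in knockout day 12 and 30.2, 33.8 and 22.1 FPKM in control day 8 (difference 2.64, SE 0.16, adjusted p = 3.43e-05). Col1a1, a chain of type I collagen, had 38.0, 30.1 and 34.5 FPKM in knockout day 12 and 8.34, 5.37 and 5.67 FPKM in control day 8 (difference 2.25, SE 0.16, adjusted p = 8.37e-05). Col3a1, type III collagen, lies on chromosome 1 and had 80.9, 77.4 and 54.1 FPKM in knockout day 12 and 18.3, 15.6 and 14.5 FPKM in control day 8 (difference 2.05, SE 0.16, adjusted p = 0.000113). Each of the 3 was higher in all knockout libraries than in any control library, as were 33.1% of all genes tested. The matrix proteoglycans Bgn and Lum rose by 2.34 and 1.45 and Col6a1 by 1.75 on the log2 scale. Fn1, fibronectin, on chromosome 1, and Fbn1, fibrillin, were the 2 that fell, by 0.54 and 0.53; without knockout day 12 replicate 2 neither passed, and without any of the other 2 knockout libraries or control day 8 replicates 2 and 3 only 1 did.

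Against control day 12, 18 of 25 connective tissue genes were lower in the knockout (3.48% of all genes), with a median of -0.94, and at day 8 6 of 20 were (2.00%). Col3a1 averaged 70.8 ± 14.6 FPKM in knockout day 12, 3.46 ± 0.635 FPKM in knockout day 8, 16.1 ± 1.96 FPKM in control day 8 and 230.2 ± 18.4 FPKM in control day 12 (SD, n = 3 each). Col6a3, a chain of type VI collagen on chromosome 1, averaged 1.77 FPKM in knockout day 12, 0.309 FPKM in knockout day 8, 0.564 FPKM in control day 8 and 22.8 FPKM in control day 12. Postn differed from these: it was at 81.1% of control day 12 (difference -0.30, 95% interval -0.63 to 0.04, adjusted p = 0.186). The knockout effect moved down between the days for 5 of 25 genes (0.905% of all genes), Col1a2, Col5a2, Col6a3, Dcn and Lox.

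Smooth muscle genes were higher as well. Of 12 genes listed 11 were tested and 7 were higher than in control day 8 (17.7%); after rescaling 6 were higher (8.52%) and 1 lower (8.24%). Within tables, 1 of 9 was higher and 1 lower in the knockout at day 8 (1.28% and 2.00%), and at day 12 2 of 11 were lower (3.48%) and limma called 0 higher (3.22%), with 2 higher at an unadjusted p under 0.05. Actg2, the gamma actin of gut smooth muscle, had 10.6, 6.90 and 7.80 FPKM in knockout day 12 and 0.407, 0.690 and 0.398 FPKM in control day 8 (difference 2.64, SE 0.18, adjusted p = 7.43e-05). Its knockout libraries all lay above its control libraries, as for 33.1% of all genes tested. Actg2 was lower than in control day 12, where it averaged 29.3 FPKM (difference -1.70, adjusted p = 0.000585). Tagln, an actin-binding protein of early smooth muscle, averaged 185 FPKM in knockout day 12 and 119 FPKM in control day 8 (difference 0.65, adjusted p = 0.0118). Acta2, smooth muscle actin, which early heart muscle also makes, had 505, 452 and 414 FPKM in knockout day 12 and 410, 425 and 344 FPKM in control day 8, groups that overlap (adjusted p = 0.275). Of 7 epicardium genes tested 2 were higher (17.7% of all genes), Sema3d and Gpm6a, and after rescaling 2 were higher (8.52%) and 1 lower (8.24%). Wt1 averaged 2.37 FPKM in knockout day 12 and 0.942 FPKM in control day 8 (adjusted p = 0.069). Of 7 cartilage and bone genes tested 5 were higher (17.7%) and 1 lower (3.30%). The higher count was 2 after rescaling (8.52%) or without control day 8 replicate 2. It was 3 without knockout day 12 replicate 1 or control day 8 replicate 3. Col9a1, on chromosome 1, and Col11a1, both cartilage collagens, rose by 1.35 and 1.21 on the log2 scale.

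Visceral endoderm passed the control day 8 level too. Of 29 genes listed 22 were tested and 13 were higher (17.7%), with a median of 0.91. After rescaling 10 were higher (8.52%), and 8 without knockout day 12 replicate 2. Afp, alpha-fetoprotein, had 142, 182 and 92.7 FPKM in knockout day 12 and 67.7, 44.1 and 21.9 FPKM in control day 8 (difference 1.70, SE 0.36, adjusted p = 0.0107). Fgb, a fibrinogen chain, had 30.1, 36.1 and 17.0 FPKM in knockout day 12 and 8.44, 6.41 and 3.59 FPKM in control day 8 (difference 2.00, SE 0.30, adjusted p = 0.00225). Hnf4a, the factor that drives many of these genes, had 10.5, 12.9 and 9.93 FPKM in knockout day 12 and 6.52, 4.70 and 3.90 FPKM in control day 8 (difference 1.02, SE 0.18, adjusted p = 0.00469). All 3 were higher in every knockout library than in any control library, as were 33.1% of all genes tested. The spread between libraries of a group was wide for the secreted proteins. Ttr, transthyretin, had 105, 186 and 101 FPKM in knockout day 12 and 112, 72.8 and 50.0 FPKM in control day 8 and did not pass (adjusted p = 0.0974).

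Within tables limma called few visceral endoderm genes, and few of all genes. At day 8 it called 0 of 19, where 1.28% of all genes were higher and 2.00% lower. At an unadjusted p under 0.05, 2 of the list were higher and 3 lower. At day 12 it called 1 of 23 higher, Lrp2 (3.22% of all genes), and 1 lower (3.48%), or 3 lower after rescaling (4.90%), with a median of -0.28; at an unadjusted p under 0.05, 2 were higher and 9 lower. The lower gene was Afp, which averaged 139 ± 44.8 FPKM in knockout day 12 and 404 ± 144 FPKM in control day 12 (SD, n = 3 each; adjusted p = 0.0168). Of 11 endoderm transcription factors tested against control day 8, Hnf4a was higher (17.7%) and 5 were lower (3.30%), with the same counts after rescaling (8.52% and 8.24%). Those 5 were Cer1, a Nodal antagonist of anterior endoderm (fall of 1.75 on the log2 scale), Hhex (1.24), Sox7 (1.12) and, on chromosome 1, Cxcr4 (1.09) and Prox1 (0.75); Sox7, Hhex, Cxcr4 and Prox1 are also expressed in endothelium. Of 11 basement membrane genes 6 were higher (17.7%), 3 after rescaling (8.52%) and 3 without knockout day 12 replicate 1 or 2; Sparc, a matrix protein of parietal endoderm, averaged 467 FPKM in knockout day 12 and 227 FPKM in control day 8 (difference 1.04, adjusted p = 0.00113). Within tables, 1 of 11 basement membrane genes was lower in the knockout at day 8 (2.00%) and 3 of 11 at day 12 (3.48%).

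Targets of p53, the factor that answers DNA damage, were higher than in control day 8: 12 of 13 tested (17.7% of all genes), and 8 after rescaling (8.52%). Cdkn1a, the p21 inhibitor of the cell cycle, had 17.0, 20.5 and 20.3 FPKM in knockout day 12 and 7.05, 5.98 and 8.75 FPKM in control day 8, with no overlap (difference 1.30, SE 0.15, adjusted p = 0.000684). Ccng1, cyclin G1, had 125, 130.5 and 111 FPKM in knockout day 12 and 62.2, 62.3 and 51.3 FPKM in control day 8, again with no overlap (difference 1.05, SE 0.12, adjusted p = 0.000652). Knockout day 12 lay above control day 8 without overlap for 33.1% of all genes tested. At day 8 5 of 12 p53 targets were higher in the knockout (1.28% of all genes), Ccng1 among them, and at day 12 3 of 13 (3.22%), Cdkn1a, Bbc3 and Aen. Bbc3, an inducer of apoptosis, rose by 0.98 on the log2 scale against control day 8. Of 24 cell cycle genes 9 were higher (17.7%), and after rescaling 4 were higher (8.52%) and 2 lower (8.24%). The higher count was 3 without knockout day 12 replicate 1 or control day 8 replicate 2 and 2 without knockout day 12 replicate 2. Within tables, 1 of 24 was higher in the knockout at day 8 (1.28%) and 10 of 24 at day 12 (3.22%). Of 24 hypoxia and glycolysis genes 9 were higher (17.7%), and 5 after rescaling or without knockout day 12 replicate 1 or 2 or control day 8 replicate 2 or 3; P4ha1, a collagen prolyl hydroxylase, rose by 1.17.

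Messenger RNAs of the mitochondrial genome were lower in knockout day 12, at 9 of 11 tested (3.30%), also after rescaling (8.24%), with the list's sum at 5783 to 6500 FPKM in knockout day 12 and 7808 to 8847 FPKM in control day 8. mt-Cytb, cytochrome b, averaged 378 FPKM in knockout day 12 and 897 FPKM in control day 8 (difference -1.24, adjusted p = 0.000563). Within tables limma called 0 of 11 at day 8, where 1.28% of all genes were higher and 2.00% lower. At that day 3 of the 11 were higher at an unadjusted p under 0.05. At day 12, 7 of 11 were lower (3.48%). The library with mt-Rnr2 at 53138 FPKM is among those of knockout day 12, and without it 6 of 11 were lower than in control day 8. The count was also 6 without knockout day 12 replicate 2 or control day 8 replicate 2, and 7 or 8 without any other library.

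In the BMP pathway limma called 0 of 12 genes tested, where 17.7% of all genes were higher and 3.30% lower. At an unadjusted p under 0.05, 3 of the 12 were higher, whereas after rescaling 3 were called lower (8.24% of all genes). In the Wnt pathway 1 of 10 was lower (3.30%), Wnt2, which lost its call without control day 8 replicate 2, and 3 after rescaling (8.24%). Of 12 genes of muscle energy metabolism 3 were lower (3.30%), Cox6a2, Pgam2 and Pygm, and also 3 after rescaling (8.24%). Of 9 neural genes tested 4 were higher (17.7% of all genes), and after rescaling 3 were higher (8.52%) and 1 lower. Of 20 epithelial genes 5 were higher, not far from the share of all genes, 3 after rescaling or without control day 8 replicate 2 and 8 without control day 8 replicate 1; Cdh1, E-cadherin, averaged 50.8 FPKM in knockout day 12 and 48.2 FPKM in control day 8 (adjusted p = 0.621). Of 20 imprinted genes 5 were higher (17.7%) and 2 lower (3.30%), or 4 and 2 after rescaling (8.52% and 8.24%), and the largest difference of the list was H19, a noncoding RNA, with 38.5, 59.5 and 20.5 FPKM in knockout day 12 and 164, 198 and 186 FPKM in control day 8 (difference -2.30, SE 0.30, adjusted p = 0.00113). Macrophage and white blood cell genes were scarce: 3 of 19 were tested, and their sum was 8.33 to 11.3 FPKM in knockout day 12 and 4.28 to 7.14 FPKM in control day 8.

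Of 6 gut genes tested 3 were higher (17.7%), also after rescaling (8.52%), Krt20, Tff3 and Pyy, and without knockout day 12 replicate 1 Pyy lost its call. Pyy, a gut peptide hormone, had 22.9, 19.3 and 21.5 FPKM in knockout day 12 and 14.6, 9.29 and 5.44 FPKM in control day 8 (difference 1.13, SE 0.26, adjusted p = 0.0153). It averaged 0.833 ± 0.688 FPKM in control day 12 (SD, n = 3), and its difference within the day 12 table was 3.66 (adjusted p = 0.000144), against 0.55 within the day 8 table (adjusted p = 0.35). Among 6 retinoic acid genes tested 2 were higher (17.7%) and 1 lower (3.30%), or 2 and 2 after rescaling (8.52% and 8.24%). The binding protein Crabp2 rose by 1.05 on the log2 scale and Cyp26a1, which degrades retinoic acid, fell by 1.32. Of 6 Notch pathway genes tested, the ligand Jag1 rose by 0.48, with an adjusted p of 0.0597 after rescaling, and the target genes Hey1 and Hey2 fell by 0.72 and 0.66, neither call holding without knockout day 12 replicate 2 or control day 8 replicate 2. Krt8, a keratin of simple epithelia, Tubb3, a neuronal tubulin, Pax6, a neural and eye factor, Nppb, a chamber hormone, and Mki67, a proliferation marker, did not pass (adjusted p = 0.0507 to 0.542). Nppa, the atrial hormone, was low, at 1.53, 1.35 and 1.53 FPKM in knockout day 12 and 0.732, 0.386 and 0.630 FPKM in control day 8, and its call (adjusted p = 0.031) was lost after rescaling (0.0558) and without control day 8 replicate 2 or 3 (0.114 and 0.0612). Without any 1 knockout day 12 library its mean was under 1 FPKM and it was not tested. Mesp1, of the earliest cardiac mesoderm, did not reach 1 FPKM and was not tested.

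The 12 genes with the largest rise among those past the threshold, without overlap and with a mean of 5 FPKM or more in the higher group were led by Igfbp7, a secreted binding protein of insulin-like growth factors, at 39.5, 35.2 and 27.4 FPKM in knockout day 12 and 2.94, 1.90 and 2.70 FPKM in control day 8 (difference 3.32, SE 0.17, adjusted p = 2.05e-05). Postn, Actg2, Gm13789, Igfbp1, Bgn, Col1a1, Trf, Sema3c, Col8a1, Mmp23 and Col3a1 followed. Sema3c, a guidance ligand of the outflow tract, had 18.0, 17.2 and 14.0 FPKM in knockout day 12 and 2.83, 3.26 and 2.79 FPKM in control day 8. The 12 largest falls were n424047, 4930500J02Rik, Snord35a, Sphkap, H19, Myh7, SNORD70, Myl7, Tnnt2, Myl3, Myocd and Eomes. Sphkap, an anchor of protein kinase A on chromosome 1, had 3.20, 1.86 and 1.44 FPKM in knockout day 12 and 13.1, 17.4 and 15.4 FPKM in control day 8 (difference -2.39, SE 0.20, adjusted p = 0.000175). The small RNA entries n424047 and SNORD70 lost their calls without some libraries, n424047 without any 1 of knockout day 12 (adjusted p = 0.065 to 0.113) and SNORD70 without knockout day 12 replicate 2 or control day 8 replicate 1 or 2 (adjusted p = 0.0575 to 0.0742). n424047 had 353, 228 and 531 FPKM in knockout day 12 and 1535, 1248 and 37354 FPKM in control day 8.

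Over all genes, knockout day 12 lay closer to control day 12 than to control day 8. The median absolute difference of a knockout day 12 library was 0.633 to 0.644 (log2) from the control mean of day 0, 0.555 to 0.584 from day 3, 0.392 to 0.403 from day 5, 0.231 to 0.305 from day 8, 0.230 to 0.298 from day 10 and 0.210 to 0.226 from day 12. Day 12 was the nearest for all 3 libraries, also after rescaling (0.188 to 0.211) and without chromosome 1 (0.204 to 0.226). The days come from separate tables. After rescaling the distance from day 8 was 0.216 to 0.241, and for replicate 3 it was 0.216 from day 8 against 0.211 from day 12.

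**Figure D5:**
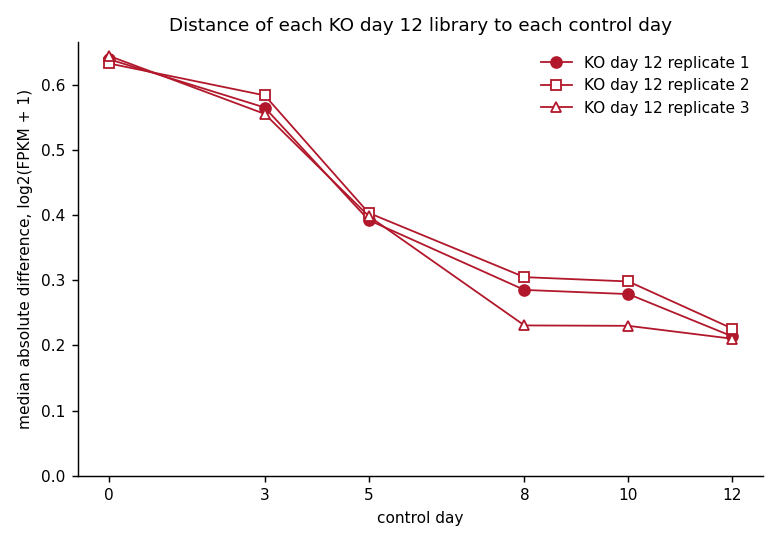
Median absolute difference in log2(FPKM + 1) (y axis) between each of the 3 knockout day 12 libraries and the control mean of each day (x axis). All 3 lines are lowest at control day 12, at 0.210 to 0.226, and the gap to control day 8 is smallest for replicate 3.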

How the data were processed

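RNA of whole embryoid bodies was sequenced after ribosomal RNA depletion with a ScriptSeq Complete Gold kit, per the labels' protocols. The authors deposited FPKM values per gene entry in 6 tables, 1 per day, with 6 libraries each, and the submitters' processing notes name TopHat, Cufflinks and the mm9 mouse genome; versions, settings and any scaling between tables are not given in the sources used here. The knockout columns of the day 12 table and the control columns of the day 8 table were joined on the gene identifier (37561 entries). Genes with a mean FPKM of 1 or more over the libraries of a fit were tested on log2(FPKM + 1) with limma 3.58.1 in R 4.3.3 (empirical Bayes with a mean trend, two-sided, Benjamini-Hochberg adjustment over all genes tested, threshold 0.05). No covariates were used. FPKM is not a count, so no count model was fitted and absolute depth is unknown.

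Chromosomes were taken from GENCODE M21 by gene identifier for 32616 entries, and a symbol with several entries is given by its highest entry. The 38 lists hold 653 genes, of which 645 matched the tables and 438 were tested in the main pairing. Members, lists and tests were chosen with earlier results of these data known. Genes named are those of a panel of 45, the 12 largest rises and 12 largest falls past the threshold without overlap of groups and at a mean of 5 FPKM or more in the higher group, and members of the lists. Alternatives were median-ratio rescaling, other filters, pseudocounts and scalings, a replicate block, a shared spread, chromosome centring and each library left out; rescaling together with leaving out control day 8 replicate 2 was chosen after seeing the data. The fit was tested on simulated data with known answers. With 3 libraries against 3, an exact permutation test of 1 gene cannot go below p = 0.1 and none is given. Some members of the lists are not reported here.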

Additional observations from a re-analysis of the deposited data

Results flagged for a closer look

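The knockout effect, knockout minus control within a table on the log2(FPKM + 1) scale, differed between day 12 and day 8 for 15 genes of the panel of 45, the 12 largest rises and the 12 largest falls, by limma's interaction contrast (Benjamini-Hochberg adjusted p under 0.05), where 0.898% of 12922 genes moved up and 0.905% moved down. Hand1 changed most among the heart genes of this set, by 2.66 (adjusted p = 0.00171), with an effect of 0.86 at day 12 and -1.80 at day 8. Sarcomere genes moved up: Tnnt2 by 1.40 (adjusted p = 0.00337), Myl7 by 1.39 (0.0226), Myh6 by 1.35 (0.0218) and Actc1 by 1.15 (0.018). Hand2 moved by 1.12 (0.037) and Ryr2 by 0.98 (0.0307, or 0.0507 after rescaling). The globins Hbb-bh1 and Hba-x moved by 2.62 (0.00377) and 1.77 (0.00766).

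Genes of the set that moved down were Eomes by -1.60 (adjusted p = 0.0048), T by -1.43 (0.0346) and Pou5f1 by -1.83 (0.0424), each above control in knockout day 8, and Igfbp7 by -1.87 (0.0048), Actg2 by -2.12 (0.0018) and Sema3c by -1.53 (0.0263), each below control in knockout day 12 by 1.08, 1.70 and 0.79 on the log2 scale, the last not past the threshold (0.0533). With 1 of 12 libraries left out, the calls of Hand1, Tnnt2, both globins, Igfbp7, Actg2 and Eomes held under all 12 omissions. The others were lost under some, with the highest adjusted p in brackets. Actc1 lost its call without knockout day 12 replicate 1, knockout day 8 replicate 1 or control day 8 replicate 2 (0.0547). Myh6 lost it without knockout day 12 replicate 1 or 2, control day 12 replicate 1 or control day 8 replicate 2 or 3 (0.0593), and Myl7 without knockout day 12 replicate 1 or 3, control day 12 replicate 1 or 2 or control day 8 replicate 2 (0.0657). Pou5f1 kept it only without knockout day 8 replicate 3 or control day 12 replicate 3 (0.108), and Ryr2 only without knockout day 8 replicate 3 or control day 8 replicate 1 (0.0887). T (0.0982), Hand2 (0.103) and Sema3c (0.077) each lost it under 9 of the 12, among them every omission of a knockout day 12 library and of control day 8 replicate 1 or 2.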

How the results depend on the processing

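Between knockout day 12 and control day 8, the number of genes called depended on the scale and filter. Median-ratio rescaling gave 1091 genes higher and 1055 lower, quantile normalization 1095 and 1045, and library totals without rRNA, small RNAs, mitochondrial and the top 10 genes 1051 and 1163, against 2261 and 423 without scaling. With no filter on low values 1191 genes were called, 958 higher and 233 lower, and with a filter on a mean FPKM of 5, which tests fewer genes, 264 were lower. Rescaling without control day 8 replicate 2 left 1233 calls, 675 of them higher. Leaving out each library in turn gave 1288 to 2880 calls, 1025 to 2551 higher and 243 to 353 lower. For knockout against control at day 8, 417 calls became 731 on rescaling, 136 with no filter and 190 to 665 with a library left out. At day 12, 878 calls became 218 with no filter and 317 to 583 with a library left out. Knockout day 12 against knockout day 8 gave 793 calls with no filter and 755 to 1865 with a library left out, against 1661, and the change of the knockout effect gave 138 and 110 to 270, against 233. The cause of these moves was not tested.

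Of 226 named genes called between knockout day 12 and control day 8, 190 kept their call on rescaling, 192 under quantile normalization and 139 with no filter. With chromosome medians centred 176 kept it, and with a library left out 166 to 206. The centred fit was also made without the filter on low values, so its losses cannot be put to centring alone. Under any of the 18 settings 0 were called in the opposite direction. Mest, an imprinted gene that was not called, changed sign under quantile normalization, to -0.28 (limma adjusted p = 0.0439) from 0.01. Libraries with the same number correlated, over genes, at 0.107, 0.01 and 0.102 in their deviations from the group means, and each matched its own number best in the main pairing. Within tables these values were -0.045, 0.076 and 0.273 at day 8 and -0.092, -0.05 and -0.03 at day 12. The day 8 libraries numbered 3 also shared a high n424047, at 37354 FPKM in the control and 29618 FPKM in the knockout. The main fits took no account of the numbers, and whether they pair libraries was not tested. With the replicate number as a block 3241 genes were called for knockout day 12 against control day 8, against 2684 without it. For knockout against control, 590 were called at day 8, against 417, and 464 at day 12, against 878. FPKM gives no read counts, so what depth limits could not be computed.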
